A study of Homo sapiens with 12 samples.

Results

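The RBM genes, named for the RNA-binding motif, were followed in A549 cells after depletion of the m6A reader YTHDC1. Members were the genes whose full symbol was RBM followed by a number, with optional further letters and digits, and RBM12, RBM15 and RBM15B were left out by the rule. The rule gave 33 members among 22564 genes tested, of which 32 were protein-coding and 1, RBM22P2, was a processed pseudogene. RBM11, RBM15B and RBM46 were not among the genes tested. A549 is an established human lung adenocarcinoma line. The samples were total RNA of A549 cells transfected with a scrambled siRNA (siSCR, 6 libraries) or with siRNA against YTHDC1 (siYTHDC1, 6 libraries), at 40 nM for 48 to 72 h in both groups. All values below come from the authors' deposited comparison of both groups, which gives 1 fold change, standard error (SE) and p-value per gene for all 12 libraries together. Values per library, and with them the overlap between groups and the depth of each library, were not analysed here. The labels name no separate cultures, so the p-values reflect only how these libraries varied, and all come from 1 line, in which fewer expressing cells and less RNA per cell cannot be told apart.

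Most RBM proteins carry 1 or several RNA recognition motifs, a fold that binds short stretches of single-stranded RNA. They act mainly in the nucleus, where they help the spliceosome to recognise splice sites, choose between alternative exons, mark spliced mRNA, hand RNA to the exosome for decay or assemble ribosomal subunits. YTHDC1 is itself a nuclear protein that binds N6-methyladenosine on RNA and acts in splicing and transcription, so the comparison asked how the transcripts of this family stood when it was depleted.

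The siRNAs of the study's oligo list are shown because they define both groups, as the strand given in the list, without the thymidine overhangs. The labels do not say which of the YTHDC1 siRNAs was used for these libraries.
siSCR: cagucgcguuugcgacugg
siRNA2_YTHDC1: cgaguaugcaaauauugaa
siRNA4_YTHDC1: cagagauaaacgaguacauga
The strand shown for siRNA2_YTHDC1 equalled the YTHDC1 mRNA in the 3' UTR, in exon 17 of its canonical transcript (chr4:69179376-69179394, minus strand, GRCh37). That of siRNA4_YTHDC1 equalled the mRNA across an exon junction, with its ends at 69180037 and 69182047 of the same chromosome. The siSCR strand was not found in YTHDC1. A further YTHDC1 siRNA of the list, against the 3' UTR and listed as its antisense strand, is not shown. In the canonical transcripts of the 33 RBM genes, the longest stretch shared with either strand of a siRNA was 8 bases for siSCR, 11 bases for siRNA2_YTHDC1 (in RBM7 and RBM8A) and 10 bases for siRNA4_YTHDC1 (in RBM23, RBM39 and RBM8A). For the further siRNA against the 3' UTR it was 11 bases (in RBM3).

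The targeted gene was lower in siYTHDC1, at -1.82 on the log2 scale in the deposited table (SE 0.11, adjusted p = 5.29e-59). All 5 epithelial markers listed were measured and 0 were called (mean normalized counts from 58.4 for EPCAM to 27600 for KRT8, with 1 higher and 0 lower at an unadjusted p under 0.05 in the same DESeq2 table). All 5 A549 markers were measured at means from 2048 to 34836, and the most abundant of them, ALDH1A1, was called lower (log2 fold change -0.75, SE 0.03, adjusted p = 1.67e-106). Of the other A549 markers, AKR1C2 lay at -0.31 and GCLM at 0.33, with adjusted p-values under 0.001, and AKR1B10 and AKR1C1 both at 0.05. Of 8 markers of blood, endothelial and stromal cells, 3 were among the genes tested. COL1A1, at a mean of 194, was called lower (-0.60, SE 0.12), COL3A1, at 10.8, was called higher (1.45, SE 0.38), and PDGFRB, at 2.13, was not called. The part of these differences in the values of the RBM genes was not tested.

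Of the 33 RBM genes, 1 was called, where a call required both thresholds of the study (an adjusted p under 0.001, and more than 0.5 in size on the log2 scale). RBM24 was lower in siYTHDC1, 32 members were not called, and 0 were called higher (DESeq2 Wald test of the authors, with 12 members higher and 8 lower at an unadjusted p under 0.05). Over all genes tested, the same rule called 3.71% lower and 3.05% higher, and among the 10410 genes whose mean normalized count reached 100 it called 4.4% lower and 3.27% higher. With 1 of 33 members lower (3.03%), the family lay near this background. At an unadjusted p under 0.05 in the same Wald test, 4507 of the 22564 genes were higher and 4368 lower. Among the 10410 genes with a mean of at least 100, 3183 were higher and 2947 lower. The median log2 fold change of the members was 0.01 (quartiles -0.11 and 0.17), with 17 above 0 and 16 below, against a median of 0 (quartiles -0.25 and 0.23) over all genes. The plot of fold changes by role shows each of these values with its interval.

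**Figure D1:**
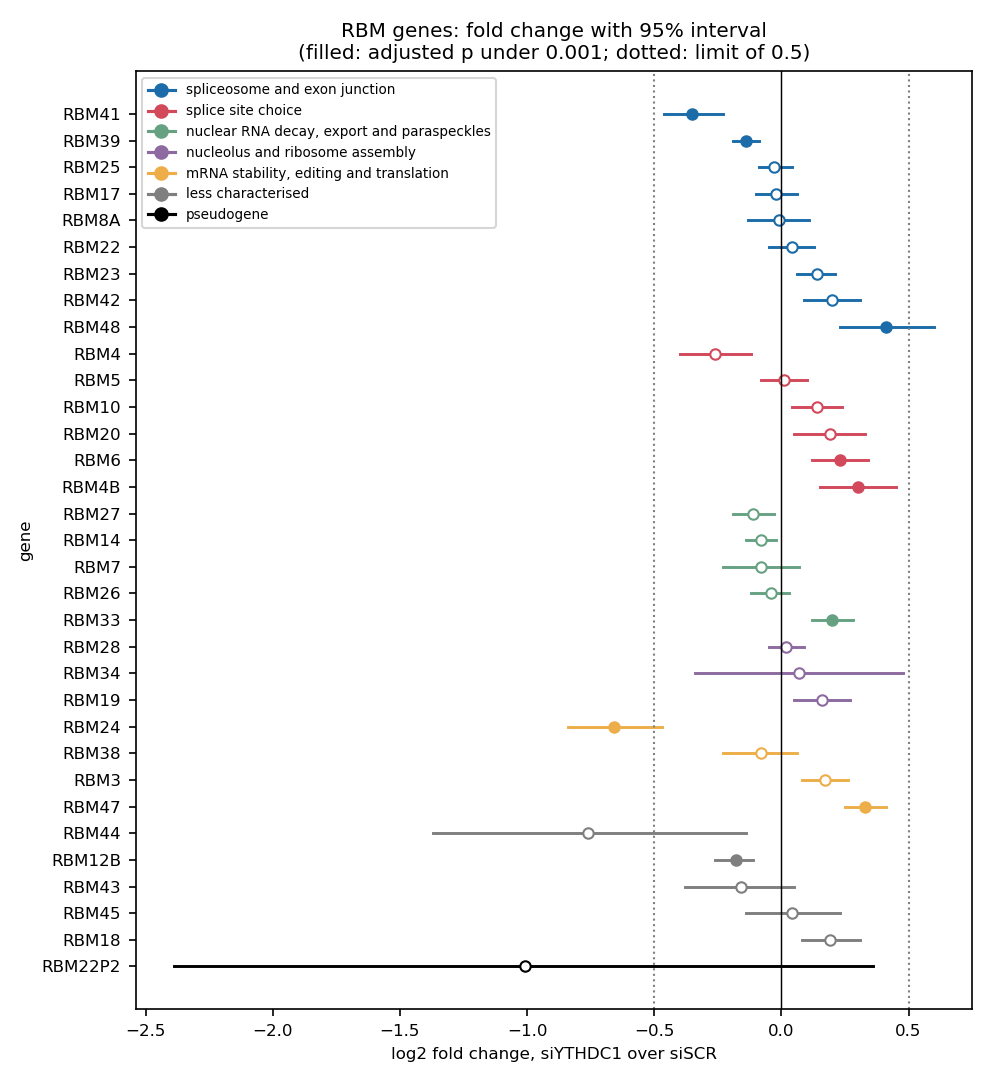
Log2 fold change of siYTHDC1 over siSCR (x axis) for each of the 33 RBM genes (y axis), grouped and coloured by role, as points with 95% intervals from the authors' SEs. Filled points have an adjusted p under 0.001 and dotted lines mark the limit of 0.5. RBM24 is the filled point beyond a dotted line, while RBM44 and RBM22P2 lie further left with wide intervals.

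Smaller shifts were common in the family, as among other well expressed genes. Of the 30 members at that level, 5 were higher (16.7%) and 4 lower (13.3%) at an adjusted p under 0.001 whatever the size of the fold change. Among all genes at that level it was 16.4% higher and 15.9% lower, so neither share stood far from its background. Higher in this sense were RBM48, RBM47, RBM4B, RBM6 and RBM33. Lower were RBM24, RBM41, RBM12B and RBM39. With the Wald statistic divided by its robust spread over all genes, changed genes included, 0 of these 9 kept an adjusted p under 0.001. RBM47 (0.00371) and RBM24 (0.0252) stayed under 0.05, and the other 7 had adjusted p-values from 0.0627 for RBM41 to 0.405 for RBM4B. The p-values given below for these members therefore hold for the authors' statistic. How much of that spread is error and how much is change was not tested. The sizes were small for most members, as for most well expressed genes: 25 of 33 (75.8%) lay within 0.25 of no change on the log2 scale. Over all genes this share was 51.6%. Among genes with a mean of at least 100 it was 71.1%, against 80.0% of the members at that level. Of the 29 well expressed members that were not called, 28 had a 95% interval of the log2 fold change inside the limit of 0.5, the exception being RBM48, and 15 had one inside 0.25.

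RBM24 directs muscle and heart splicing and binds the 3' ends of mRNAs to set their stability. In the authors' deposited table its mean normalized count was 301 and its log2 fold change was -0.66 (SE 0.10, adjusted p = 1.1e-10), which is 36.6% lower in siYTHDC1. The 95% interval of its log2 fold change ran from -0.84 to -0.47 and so included sizes under 0.5. The call was lost in a test of a change larger than 0.5 (adjusted p = 0.77) and with the Wald statistic divided by its robust spread (adjusted p = 0.0252). The gene lies at chr6:17281592-17294102 on the plus strand of GRCh37 and has 4 exons in its canonical transcript. In a search for near copies elsewhere in the genome, no alignment of that transcript reached 97% identity over at least 100 bases. Identity was taken over whole alignments, so an identical stretch inside a longer, less similar alignment could be missed. Another gene, on the opposite strand, overlapped 1.9% of its exon bases.

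RBM38, a p53 target that binds the p21 mRNA, is a close relative of RBM24. Their coding sequences aligned over 55.5% of that of RBM24 at 77.6% identity. RBM38 had a similar mean normalized count of 300.0 but lay at -0.08 in log2 fold change (SE 0.07, adjusted p = 0.448). Its 95% interval, from -0.23 to 0.06, lay outside that of RBM24. The pair was chosen after values were seen, with RBM24 as the only called member, and the difference between both was not tested. Among other members that act on mature mRNA, RBM47 was higher at an adjusted p under 0.001 and RBM3 missed that threshold. Neither was called. RBM47, a cofactor of C-to-U RNA editing, stood at a mean normalized count of 1808, with 0.33 as its log2 fold change (SE 0.04, adjusted p = 4.51e-15), the smallest p-value of the family. RBM3, induced by cold, had 0.17 (SE 0.05, adjusted p = 0.00162).

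Members of the spliceosome went in both directions. The highest was RBM48, which joins the minor spliceosome, the machinery for the rare U12-type introns, at 0.41 on its log2 fold change (SE 0.09, adjusted p = 6.28e-05), and the lowest was RBM41, another protein of that machinery, at -0.35 (SE 0.06, adjusted p = 1.6e-08). The 95% intervals of the log2 fold changes were 0.23 to 0.60 for RBM48 and -0.46 to -0.23 for RBM41. These did not overlap, but both genes were picked as the ends of this group, which favours such a gap. Their difference was not tested. RBM39 was the most abundant member by mean normalized count, at 3522. It is a splicing factor known as the target of sulfonamide degraders, and was lower by a small amount with a narrow SE (log2 fold change -0.14, SE 0.03, adjusted p = 2.88e-06). Its paralog RBM23 stood on the other side of 0, at 0.14 (SE 0.04, adjusted p = 0.00311), and RBM42, a protein of the tri-snRNP, at 0.20 (SE 0.06, adjusted p = 0.00185). Factors with general duties in splicing had log2 fold changes close to 0: RBM17, which helps to recognise 3' splice sites, lay at -0.02, RBM22, which sits at the catalytic centre, at 0.04, RBM25, which works with the U1 snRNP, at -0.03, and RBM8A, a core protein of the exon junction complex, at -0.01, with adjusted p-values from 0.573 to 0.939.

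Of the 6 measured members that choose between splice sites, 0 were called by the authors' DESeq2 test (4 were higher and 1 lower at an unadjusted p under 0.05). Of the 10410 genes with a mean of at least 100, the rule called 3.27% higher and 4.4% lower. At that unadjusted p, 3183 of them were higher and 2947 lower. RBM4B and RBM6 had an adjusted p under 0.001, and both were higher, as were 16.4% of genes at that level. Whether a group of 6 differs from these shares was not tested. RBM5, RBM6 and RBM10 are related regulators of alternative splicing that have been studied as tumour suppressors in the lung. Their log2 fold changes were 0.23 for RBM6 (SE 0.06, adjusted p = 0.000187), 0.14 for RBM10 (SE 0.05, adjusted p = 0.0159) and 0.01 for RBM5 (SE 0.04, adjusted p = 0.912). RBM5 and RBM6 are neighbours on chromosome 3 that share 4.4% of the exon bases of RBM5 on the same strand. RBM20, which regulates titin splicing in heart muscle, lay at 0.19 (SE 0.07, adjusted p = 0.0264).

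RBM4 and RBM4B stood in opposite directions although they are the closest pair examined. Both regulate alternative splicing, and their genes lie tail to tail on chromosome 11 (66406138 to 66435845, plus strand, and 66432469 to 66445358, minus strand). RBM4 had a mean normalized count of 284 and lay at -0.26 in log2 fold change (SE 0.07, adjusted p = 0.002), and RBM4B, with a mean of 234, at 0.30 (SE 0.08, adjusted p = 0.000591). Their 95% intervals, -0.40 to -0.12 and 0.15 to 0.45, did not overlap, while the difference of 0.56 between both log2 values was not tested, since the table gives no covariance between genes. The coding sequences were 86.1% identical over 1095 aligned positions. A stretch with a typical number of differences is printed to show how far both coding sequences differ. It holds 60 bases at the same place in both coding sequences (base 199 to 258), with the 7 differing bases in capitals.
RBM4: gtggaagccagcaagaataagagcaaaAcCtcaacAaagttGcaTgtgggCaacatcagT
RBM4B: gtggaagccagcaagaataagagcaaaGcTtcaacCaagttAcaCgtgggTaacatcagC
The stretch of RBM4 is chr11:66407381-66407440 on the plus strand and that of RBM4B chr11:66444293-66444352 on the minus strand of GRCh37. Windows of 100 coding bases without a gap differed at 10 positions in the median (range 0 to 24), and 119 of 707 windows held no difference. The untranslated exon bases, which reads also cover, were not compared. Of the exon bases of RBM4, 23.8% were shared with the readthrough gene RBM14-RBM4 on the same strand and 9.0% with RBM4B on the opposite strand. The part of shared reads in these opposite values was not tested.

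Adaptors of nuclear decay and export lay close together. RBM7, the RNA-binding subunit of the NEXT complex, stood at -0.08 (SE 0.08), RBM26 at -0.04 (SE 0.04) and its relative RBM27, which is linked with it to the PAXT decay route, at -0.11 (SE 0.04, adjusted p = 0.0274), all as log2 fold changes that were not called. RBM14, a protein of paraspeckles, was at -0.08 (SE 0.03, adjusted p = 0.0337). The exception in this group was RBM33, an adaptor of the m6A demethylase ALKBH5, whose log2 fold change was 0.20 (SE 0.04, adjusted p = 9.05e-06). ALKBH5 itself stood at 0.22 on that scale (SE 0.04, adjusted p = 3.6e-08), likewise under the limit of 0.5. The nucleolar members RBM19, RBM28 and RBM34, of which the first 2 act in ribosome assembly, had log2 fold changes of 0.16, 0.02 and 0.07 and were not called.

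**Figure D2:**
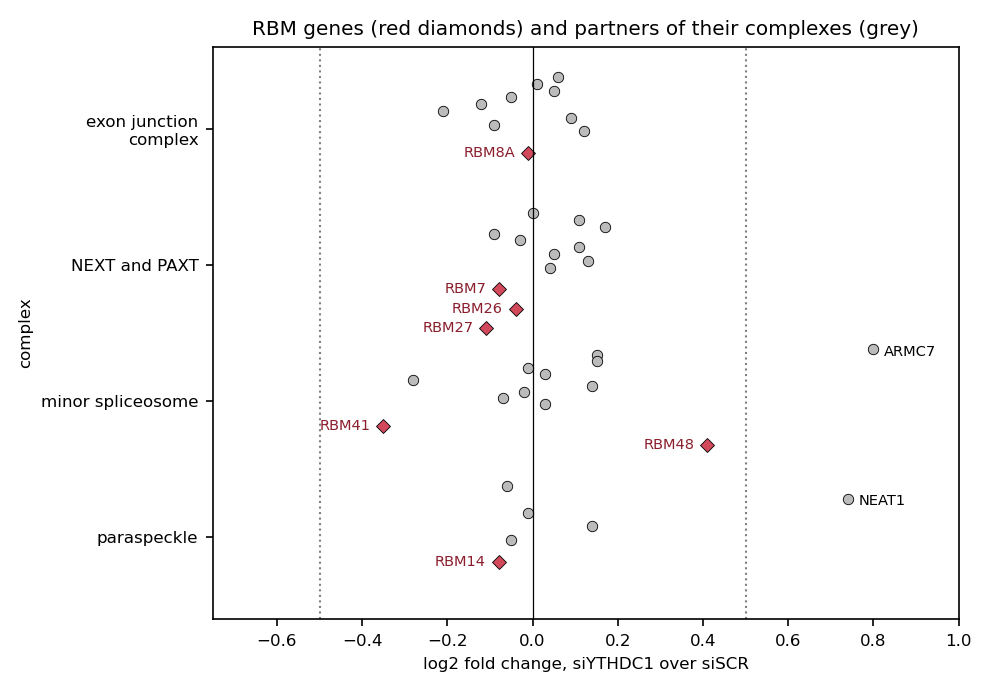
Log2 fold change of siYTHDC1 over siSCR (x axis) for RBM genes (red diamonds) and listed partners (grey points) of the exon junction complex, the NEXT and PAXT decay adaptors, the minor spliceosome and paraspeckles (y axis). Dotted lines mark the limit of 0.5. ARMC7 at 0.80 and NEAT1 at 0.74 are the partners beyond it, and in the minor spliceosome RBM48 lies at 0.41 and RBM41 at -0.35.

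The other genes of these complexes were compared as lists, which were chosen with earlier results of these data known. Of 9 further exon junction genes and 9 further genes of the NEXT and PAXT routes, 0 were called (medians 0.01 and 0.05 on the log2 scale; by the same Wald test 0 and 4 were higher and 1 and 1 lower at an unadjusted p under 0.05). RNPS1, a splicing activator that associates with the exon junction complex, had an adjusted p under the threshold but a small size, -0.21 in log2 fold change (SE 0.03, adjusted p = 4.99e-09). Of 10 further genes of the minor spliceosome, 1 was called higher and 0 lower (median 0.03), where the rule called 3.27% higher and 4.4% lower of all genes with a mean of at least 100. That gene was ARMC7, whose product binds RBM48, and its log2 fold change was 0.80 (SE 0.10, adjusted p = 5.72e-15). The other 9 listed genes of that machinery lay between -0.28 and 0.15. Among paraspeckle genes, the RNA NEAT1 was called higher (0.74, SE 0.04), and NONO, SFPQ and PSPC1 were not. Of 6 genes with RBM names but no number, RBMS3 was called lower (-0.90, SE 0.15, adjusted p = 4.14e-08) at a mean normalized count of 86.2, and RBMX was at -0.02.

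Members with less known roles included RBM12B, which has several RNA recognition motifs, at a mean normalized count of 1166, with -0.18 as its log2 fold change (SE 0.04, adjusted p = 1.31e-05). Of its exon bases, 46.6% overlapped exons of other genes on the opposite strand. The study names a stranded library kit, but whether reads were counted by strand is not given in the sources used here. RBM18 (0.19, adjusted p = 0.00504), RBM45 (0.04, adjusted p = 0.79) and RBM43 (-0.16, adjusted p = 0.282) were not called. RBM44, known from germ cells, had the lowest log2 fold change of the coding members at -0.76, but with an SE of 0.31 at a mean normalized count of 15.0 its adjusted p was 0.0484. The pseudogene RBM22P2, at a mean of 2.9, had -1.01 with an SE of 0.70 (adjusted p = 0.297), so its size lay within the error at that level.

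**Figure D3:**
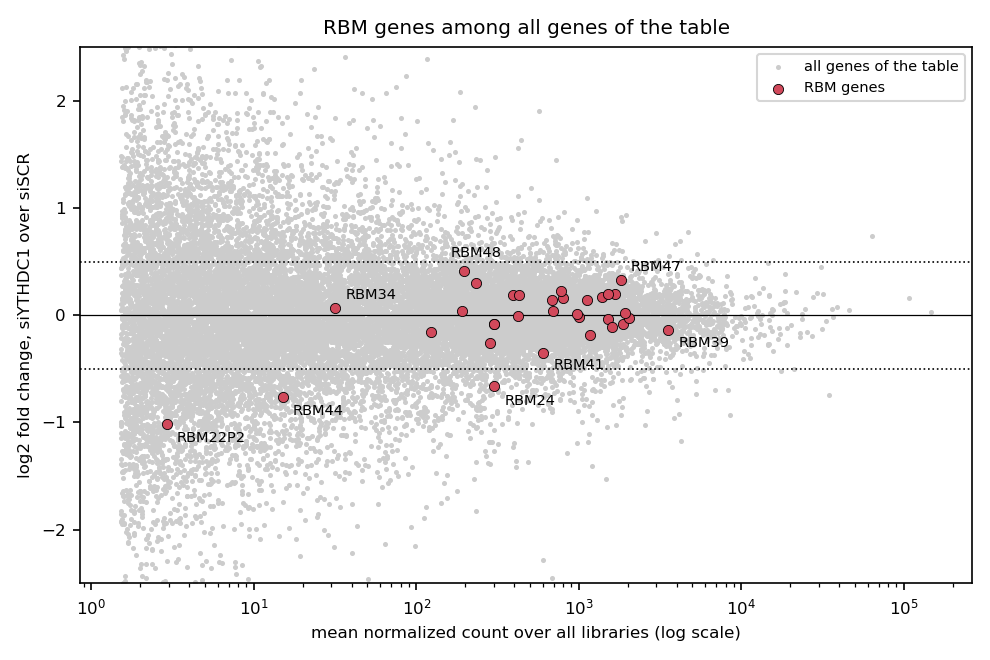
Fold change in siYTHDC1 on the log2 scale (y axis) plotted by expression level, the mean normalized count (x axis, log scale), for every gene of the authors' deposited table (grey) and the RBM genes (red), with 111 genes outside the plotted range of 2.5 in size. Dotted lines mark the limit of 0.5, and 30 of 33 RBM genes lie at a mean of at least 100, where the spread of grey points is narrower.

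Most of the family was well expressed. The mean normalized count over all libraries had a median of 693 over the members, and 13 members were at 1000 or more. Over all genes the median was 65.8, but these include noncoding genes and pseudogenes, while all members but RBM22P2 are protein-coding. Precision followed the level: the widest SE of a log2 fold change was 0.06 for the 13 members at 1000 or more, 0.11 for the 17 between 100 and 1000, and 0.70 for the 3 below 100. Levels were compared between genes per kb of merged exons. RBM42 was highest at 687 per kb, above 97.2% of protein-coding genes tested, and RBM39 at 294, RBM14 at 289, RBM27 at 240, RBM3 at 239 and RBM47 at 212 came below it. These 5 cannot be ordered, since the table gives no error of a level. RBM24 stood at 87.8 per kb, above 61.4% of protein-coding genes, and RBM38 at 111. At the low end were RBM44 at 2.49 per kb, above 11.6% of protein-coding genes, and RBM34 at 10.8, above 23.3%. RBM34 shared 48.6% of its exon bases with ARID4B on the same strand, where counting could assign reads to neither gene. ARID4B had a log2 fold change of 0.01 (SE 0.05). RBM27 likewise shared 44.8% of its exon bases with an unnamed gene on the same strand. RBM8A and RBM7 had near copies of 59.8% and 51.9% of their canonical transcripts elsewhere. Those of RBM8A lay at the pseudogene RBM8B on chromosome 14 (2807 bases) and at a locus on chromosome 10 (127 bases), and that of RBM7 at RBM7P1 on chromosome 2, so their values are uncertain where reads could be shared.

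**Figure D4:**
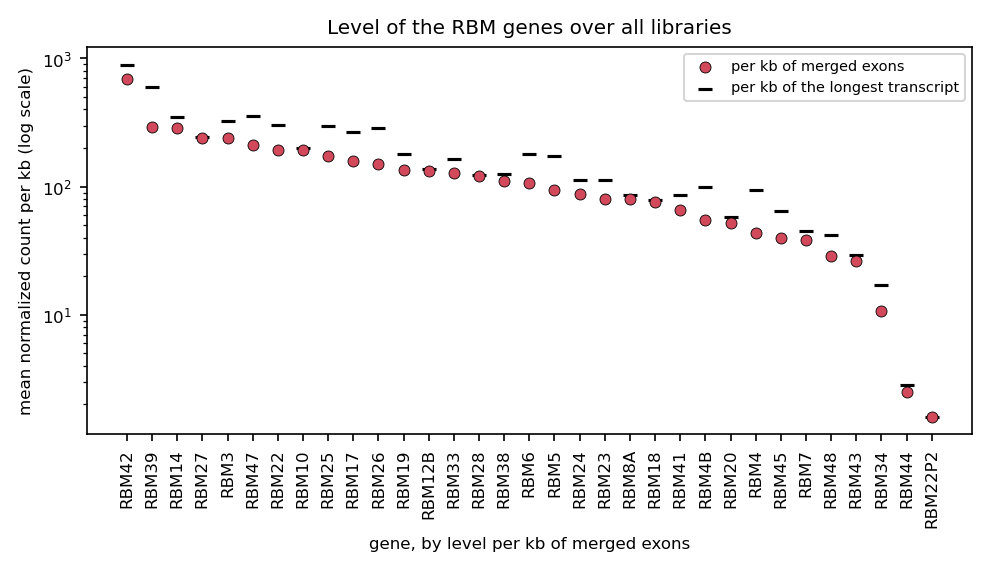
Mean normalized count over all libraries per kb (y axis, log scale) for each of the 33 RBM genes (x axis), per kb of merged exons (red points) and of the longest transcript (black dashes). RBM42 is highest on both scales, and RBM34, RBM44 and RBM22P2 stand apart at the low end.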

How the data were processed

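Total RNA-seq was compared between siYTHDC1 and siSCR libraries, 6 each, grouped by title. The authors aligned reads with STAR to hg19, made gene counts with HTSeq from a GENCODE annotation that predates the one used here, and ran DESeq2 with a term for 2 sequencing batches, which the labels do not assign to libraries. Their deposited table gives per gene a signal (the mean normalized count over all libraries), a log2 fold change with its SE, a Wald score, and p-values, raw and Benjamini-Hochberg adjusted over all 22564 genes. No column per library was used, so the tests planned for counts, a left-out library or a replicate block could not be run. The study's methods give a target depth, but the depth reached in each library is not known from the table.

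Members, role lists and partner lists were chosen with earlier results of these data known. Named were called members, members with an adjusted p under 0.001, the 4 highest per kb, paralog pairs, and the rest by role. The pair RBM24 and RBM38, and the neighbours ALKBH5 and ARID4B, were added after values were seen. The highest mean per symbol was used. Intervals are 1.96 SE each way. The call rule was tested on simulated data. Gene models (GENCODE 44 mapped to GRCh37) matched 32 members by ID and RBM8A by symbol, and can differ from the release used for counting. Near copies and identities came from blastn (BLAST 2.17.0, best alignment for pairs). Python 3.11.15, pandas 2.3.3, scipy 1.17.1 and matplotlib 3.10.9 were used.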

Additional observations from a re-analysis of the deposited data

How the results depend on the processing

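The counts of called members depended on where the limits were set. Without a limit on the fold change 5 members were higher and 4 lower, where 2061 of the 22564 genes were higher and 2040 lower. With an adjusted p under 0.05 at the limit of 0.5, 2 were lower, RBM24 and RBM44. With a fold limit of 1, in a test of a change larger than 0.5, and with the Wald statistic divided by its robust spread of 2.14, 0 were lower and 0 higher. At an unadjusted p under 0.05, the second of these gave 0 members and the third gave 3 higher and 4 lower. With that spread the adjusted p of RBM24 was 0.0252, that of RBM47 0.00371, and 0 of the 9 members named at an adjusted p under 0.001 stayed under it. Except without a fold limit, the share of all genes under these changed limits and tests is not given here. Whether the members differ from other genes there was not tested. The call of RBM24 held when fold changes were centred on the median of well expressed genes (0.01) and when genes below a mean of 10 or 100 were left out. The median of the members stayed between 0 and 0.02 under these and with other sets of members, and YTHDC1 was at -1.83 when centred. Of the 4 highest members per kb, 3 were also among the 4 highest per kb of the longest transcript, where RBM47 took the place of RBM27. No paired analysis was possible because no column of the table carries a replicate number, and no library could be left out.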

Other observations

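RBM26-AS1, an antisense RNA that lies on the opposite strand and overlaps the start of RBM26, stood at a mean normalized count of 21.2 and at 0.70 in log2 fold change (SE 0.26, adjusted p = 0.0288), against -0.04 for RBM26. The readthrough gene RBM14-RBM4 had a mean of 4.9 and lay at 0.09 (SE 0.51, adjusted p = 0.93), so at that level a shift of either size seen for RBM14 or RBM4 was not detectable.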
